A study of Mus musculus with 16 samples.

Results

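The interferon-stimulated genes described here are 45 mouse genes of the type I interferon response, chosen by their symbols: the receptor chains, the nucleic acid sensors, the STAT and IRF transcription factors and the effector genes they induce. A gene was measured where a probe set paired with it and with no other gene, and where several did, the one with the highest mean log2 intensity was kept. This gave 41 of the 45 genes, of 19237 genes measured in the same way. Dtx3l, Parp9 and Igtp were paired only with probe sets of several genes and Ifi44 with none, so these 4 were not analysed here. No filter on low values was used. The hepatic transcripts of 16 mice were measured on Affymetrix whole-transcript arrays, 1 array per liver, with 100 ng of total RNA amplified for each. The 8 control livers are labelled LRH-1 hep +/+ and the 8 knockout livers LRH-1 hep-/-, which marks the loss of the nuclear receptor LRH-1, encoded by Nr5a2, in hepatocytes. All mice were 17 to 19 weeks old, ate freely and were killed at 7 am. The promoter that drove the recombination, the sex and the strain are not named in the sources used here, and the labels name no interferon, virus or other stimulus of this pathway. The labels call the livers of a genotype biological replicates.

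Type I interferons bind a receptor of the chains Ifnar1 and Ifnar2, and the kinases on it activate STAT2, which joins Irf9 in the nucleus and switches on genes that hold an interferon-stimulated response element. Interferon gamma has a receptor of its own and acts on genes with a gamma-activated site. In liver, hepatocytes and resident macrophages both carry the pathway, and without infection its target genes are held at a low tonic level. Irf7 is a target of the response and a factor that drives more interferon, whereas Usp18 is a target that shuts the receptor down.

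Values below are the log2 of the deposited intensities, and differences are knockout minus control on that scale ± SE from a limma fit over all genes, with p-values adjusted by Benjamini-Hochberg over the 19237 genes. Genes with an adjusted p under 0.05 are called changed. The number of arrays limits the precision. Nr5a2 lay between 8.45 and 8.78 in controls and between 7.25 and 8.25 in knockouts, and no pair of arrays of a genotype held the same values. Several arrays stood apart from the rest. Control 5, control 8 and knockout 1 carried the adipocyte transcript Adipoq at 5.04 to 6.30, with the other arrays at 3.52 or lower. Control 4 and knockout 5 carried the skeletal muscle transcript Acta1 at 10.43 and 10.25, with the other arrays at 6.34 or lower. Results are given with and without these arrays where they change. Hepatocyte markers were bright on every array, and Alb lay between 13.01 and 13.23 in controls and between 13.05 and 13.20 in knockouts.

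The promoter sequences of 6 genes are shown first: Oasl1, Oasl2 and Stat2, which were called changed, Ifit1 and Ifit3, which varied widely between livers, and Irf7. They are the 250 bases before the start in RefSeq (GRCm38.p6), which held at least 1 start for 33 of the 41 measured genes, the others being Usp18, Oas2, Mx1, Mx2, Dhx58, Zbp1, Parp14 and Rtp4. The window of Ifit1 is chr19:34640639-34640888 and that of Ifit3 chr19:34583279-34583528, both on the plus strand. The window of Oasl1 is chr5:114922990-114923239 and that of Oasl2 chr5:114896684-114896933, also on the plus strand. The window of Stat2 is chr10:128270248-128270497 on the plus strand, and that of Irf7 is chr7:141266425-141266674 on the minus strand. Capitals mark matches to the core of the interferon-stimulated response element, GAAA, any 2 bases and GAAA again, searched on both strands and here read as its reverse complement.
Ifit1: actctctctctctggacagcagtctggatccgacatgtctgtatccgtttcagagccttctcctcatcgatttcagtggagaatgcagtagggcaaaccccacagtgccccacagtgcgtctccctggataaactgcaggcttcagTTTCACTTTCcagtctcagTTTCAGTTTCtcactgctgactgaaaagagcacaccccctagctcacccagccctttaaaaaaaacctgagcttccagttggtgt
Ifit3: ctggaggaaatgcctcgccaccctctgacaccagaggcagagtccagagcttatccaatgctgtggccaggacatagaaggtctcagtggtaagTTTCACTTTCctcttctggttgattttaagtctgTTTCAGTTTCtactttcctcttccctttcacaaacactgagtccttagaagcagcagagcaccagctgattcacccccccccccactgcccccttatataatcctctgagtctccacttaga
Stat2: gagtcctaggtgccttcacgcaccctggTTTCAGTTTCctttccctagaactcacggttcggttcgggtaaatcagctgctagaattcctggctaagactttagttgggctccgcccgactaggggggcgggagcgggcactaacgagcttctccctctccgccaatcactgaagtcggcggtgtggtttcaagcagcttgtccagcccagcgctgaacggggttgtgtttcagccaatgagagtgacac
Oasl1: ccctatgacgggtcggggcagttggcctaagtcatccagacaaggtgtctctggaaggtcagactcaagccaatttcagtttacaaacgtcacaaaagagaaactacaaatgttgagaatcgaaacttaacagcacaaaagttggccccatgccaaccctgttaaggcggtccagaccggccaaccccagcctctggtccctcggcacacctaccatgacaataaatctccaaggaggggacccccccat
Oasl2: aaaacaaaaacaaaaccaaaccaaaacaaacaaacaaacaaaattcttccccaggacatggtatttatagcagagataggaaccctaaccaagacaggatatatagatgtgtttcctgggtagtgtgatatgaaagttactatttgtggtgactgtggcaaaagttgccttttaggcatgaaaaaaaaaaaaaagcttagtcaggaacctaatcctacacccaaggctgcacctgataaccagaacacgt
Irf7: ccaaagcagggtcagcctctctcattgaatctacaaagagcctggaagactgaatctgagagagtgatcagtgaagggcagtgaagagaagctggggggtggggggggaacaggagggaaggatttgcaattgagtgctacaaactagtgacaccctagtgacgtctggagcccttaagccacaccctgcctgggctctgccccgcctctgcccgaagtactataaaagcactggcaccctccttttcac
With bases counted back from the start, the matches of Ifit1 began at -104 and -85, those of Ifit3 at -156 and -122 and that of Stat2 at -222. The windows of Oasl1, Oasl2 and Irf7 held no match to these letters, and none of the 6 held TTCNNNGAA, the core of the gamma-activated site. Among the 33 genes, 10 had a window with the core of the interferon-stimulated response element, namely Ifit1, Ifit3, Isg15, Rsad2, Oas3, Bst2, Gbp2, Gbp3, Irgm1 and Stat2. Counted over windows this was 10 of 40 (25%), and 2.98% of the 32851 RefSeq windows of all genes held it. TTCNNNGAA was found in 9 of the 40 windows (22.5%) and in 7.02% of all windows. Bst2 was the 1 gene with both motifs, and there they overlapped. Irf1, Irf8 and Psmb8 were among the 9. A match describes letters and not binding.

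Of the 41 measured genes, 4 changed between genotypes. Oasl1, Oasl2 and Usp18 rose in knockout livers, by 1.36-fold to 1.66-fold, and Stat2 fell. This is 9.76% of the genes, with 8.70% of all genes called in the same fit, so the share called lay near that of the whole array. Counted by direction, 3 rose (7.32%, with 5.49% of all genes) and 1 fell (2.44%, with 3.20% of all genes). The median difference over the 41 genes was 0.01 and over all genes 0.002, with 24 of the 41 above 0 and 17 below. An unadjusted p under 0.05 was reached by 11 of the 41 (26.8%) and by 17.6% of all genes. The counts of such p-values given below for smaller groups are to be read beside this share of all genes. Without the 3 arrays with adipocyte transcripts 3 of the 41 were called (2 higher, 1 lower, median -0.02), and without all 5 arrays that stood apart 2 were called, both higher. The fit without the 5 arrays also made fewer calls over all genes, as counted in the last section. For the fit without the 3 arrays the share of all genes called is not given here. None of the 41 separated the genotypes without overlap, which 2.89% of all genes did. For the 37 genes that were not called, the differences ran from -0.30 to 0.33 with SEs of 0.06 to 0.20, and every 95% confidence interval stayed within 2-fold in either direction, the bounds being -0.59 and 0.57. In whole liver, a change in the number of cells of a type and a change in RNA per cell cannot be told apart.

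**Figure D1:**
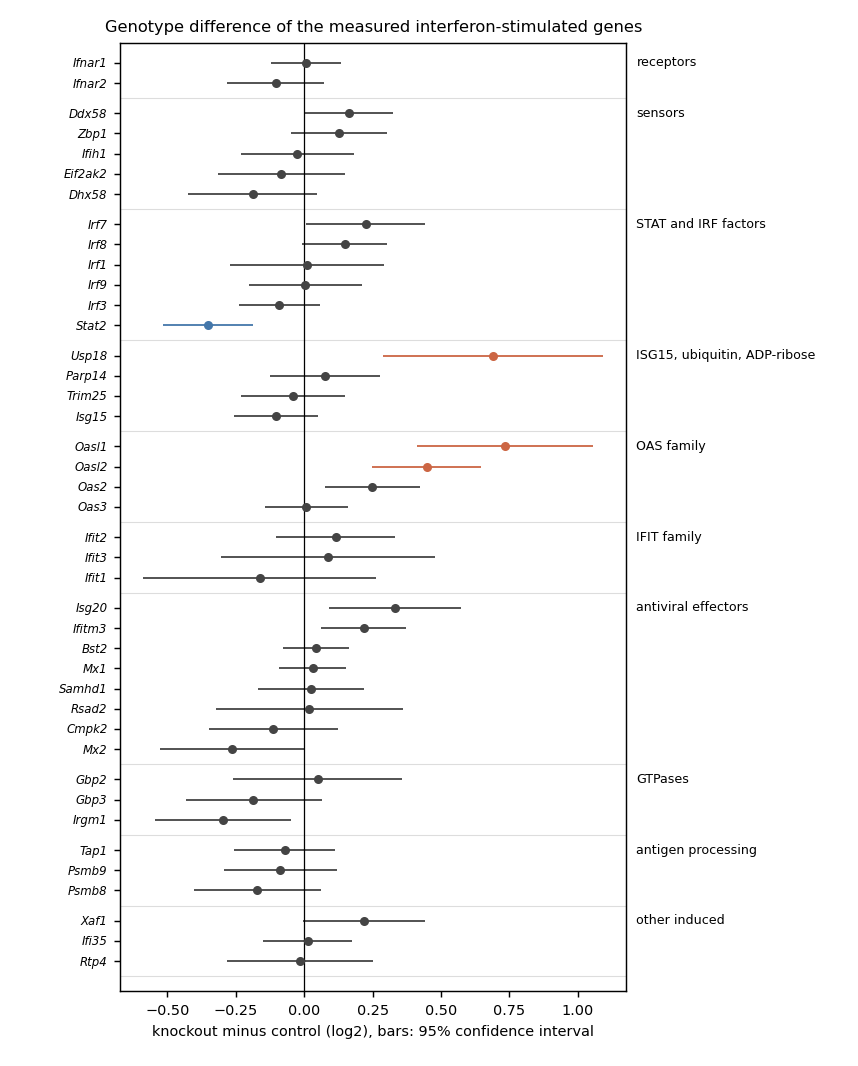
Difference in log2 intensity, knockout minus control, of the 41 measured interferon-stimulated genes, grouped by role, with points for the limma estimate and bars for the 95% confidence interval (8 livers a genotype). Orange marks Oasl1, Oasl2 and Usp18, which rose, and blue marks Stat2, which fell; the other 37 intervals stay between -0.59 and 0.57.

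The receptor chains gave no call. Ifnar1 had its lowest, median and highest values at 7.81, 7.90 and 7.99 in controls and at 7.73, 7.91 and 8.11 in knockouts, a difference of 0.01 ± 0.06 (limma adjusted p = 0.989). Ifnar2 stood at 8.87, 9.23 and 9.37 in controls and at 8.85, 9.06 and 9.46 in knockouts, a difference of -0.10 ± 0.08 (limma adjusted p = 0.649). For both chains the knockout livers spanned the whole control range. The interval of Ifnar1 ran from -0.12 to 0.13, and that of Ifnar2 from -0.28 to 0.07.

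Among the 6 transcription factors, only Stat2, which carries the signal of the type I receptor to the nucleus, was called. Its lowest, median and highest values were 8.21, 8.33 and 8.51 in controls and 7.61, 8.01 and 8.27 in knockouts. All knockout livers but knockout 3 lay below the lowest control, and knockout 5, which carried muscle transcripts, was the lowest. Stat2 fell to 78.3% of the control level, a difference of -0.35 ± 0.08 (limma adjusted p = 0.00505). The call held without the 3 arrays with adipocyte transcripts (-0.35, limma adjusted p = 0.0343). It was lost without all 5 arrays that stood apart, where the difference was -0.27 (limma adjusted p = 0.109).

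Irf9, which joins STAT2 on DNA, was not called. It stood at 7.47, 7.76 and 7.97 in controls and at 7.45, 7.78 and 8.17 in knockouts (0.00 ± 0.10, limma adjusted p = 0.997), with full overlap. Irf7 stood at 6.70, 7.06 and 7.29 in controls and at 7.04, 7.24 and 7.76 in knockouts. The lowest control and the highest knockout were the ends of the scale, 4 knockout livers exceeded every control, and the difference of 0.22 ± 0.10 was not called (limma adjusted p = 0.260). Irf8, a factor of myeloid cells, differed by 0.15 ± 0.07 (limma adjusted p = 0.324). Irf3, which is activated by the sensors without new synthesis, and Irf1, which serves both interferon types, differed by -0.09 ± 0.07 and 0.01 ± 0.14, with limma adjusted p-values of 0.623 and 0.994.

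No call was made among the 5 sensors, of which 1 reached an unadjusted p under 0.05 in limma. The RNA helicases were Ddx58 (RIG-I), with a difference of 0.16 ± 0.08 and a limma adjusted p of 0.274, Ifih1 (MDA5) at -0.03 ± 0.10, and Dhx58 (LGP2) at -0.19 ± 0.11. Zbp1, which reads Z-form nucleic acid, differed by 0.13 ± 0.08. Eif2ak2, the kinase PKR that halts translation, differed by -0.08 ± 0.11. Their signs were mixed, and all 5 genes overlapped between genotypes.

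Usp18, the protease that removes ISG15 from proteins and blocks signalling at Ifnar2, had the largest increase after Oasl1. Its lowest, median and highest values were 6.25, 6.95 and 7.29 in controls and 6.44, 7.62 and 7.93 in knockouts. All knockout livers but knockout 8, at 6.44, exceeded every control, and the next lowest knockout stood at 7.38. The control livers themselves divided, with controls 1, 6 and 8 at 6.40 or lower and the other 5 at 6.78 or higher. Usp18 rose by 0.69 ± 0.19, or 1.61-fold (limma adjusted p = 0.0273). This call was the least secure of the 4. It was lost on median centring of the arrays (0.66, limma adjusted p = 0.0592), with a variance trend and robust variances (limma adjusted p = 0.0554), without the 3 arrays with adipocyte transcripts (0.59, limma adjusted p = 0.129) and without all 5 arrays that stood apart (0.58, limma adjusted p = 0.262). It was also lost when any 1 of control 1, 6 or 8 or knockout 1, 2, 4 or 6 was left out, with adjusted p-values of 0.0565 to 0.0628.

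Isg15 itself, the ubiquitin-like modifier, stood at 5.05, 5.23 and 5.44 in controls and at 4.98, 5.08 and 5.35 in knockouts, a difference of -0.10 ± 0.07 (limma adjusted p = 0.569). This value is uncertain. The 20 probe sets numbered next to the one paired with Isg15 all name genes of chromosome 17, whereas RefSeq places Isg15 on chromosome 4. For the other 40 genes the neighbouring numbers pointed to the gene's own chromosome. Trim25, the ubiquitin ligase that activates RIG-I, differed by -0.04 ± 0.09, and the ADP-ribosyltransferase gene Parp14 by 0.07 ± 0.10.

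Of the 4 genes of the oligoadenylate synthetase family among the 41, 2 rose, with 5.49% of all genes called higher. Oas1a and Oas1b, of the same family, were on the list of further pathway genes below. They were not called (0.16 ± 0.09 and 0.01 ± 0.11, limma adjusted p = 0.411 and 0.994). The 2 that rose had the smallest p-values of the 41 genes. Oasl1, which has no synthetase activity and in mouse restrains the translation of Irf7, stood at 7.01, 7.62 and 7.97 in controls and at 7.92, 8.19 and 8.96 in knockouts. Every knockout liver except knockout 3 lay above the highest control. Oasl1 rose by 0.73 ± 0.15, or 1.66-fold (limma adjusted p = 0.00304). Oasl2, its neighbour on chromosome 5, stood at 5.81, 6.04 and 6.54 in controls and at 6.31, 6.56 and 6.72 in knockouts. Control 5, with adipocyte transcripts, was the highest control, and 5 knockout livers exceeded it. Oasl2 rose by 0.45 ± 0.10, or 1.36-fold (limma adjusted p = 0.0034).

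Both increases were called without the 3 arrays with adipocyte transcripts, at 0.76 for Oasl1 (limma adjusted p = 0.0158) and 0.48 for Oasl2 (limma adjusted p = 0.00327). They were also called without all 5 arrays that stood apart, at 0.70 (limma adjusted p = 0.0337) and 0.52 (limma adjusted p = 0.00517). Leaving out each array in turn, the limma adjusted p-values were at most 0.00831 and 0.0093. Oas2 and Oas3 make the oligoadenylates that activate RNase L. Oas2 stood at 5.43, 5.64 and 6.01 in controls and at 5.73, 5.93 and 6.16 in knockouts, with 2 knockout livers above every control, and its difference of 0.25 ± 0.08 was not called (limma adjusted p = 0.0715). It was called without control 4, the highest control, where the difference was 0.30 (limma adjusted p = 0.0198). Oas3 differed by 0.01 ± 0.07.

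**Figure D2:**
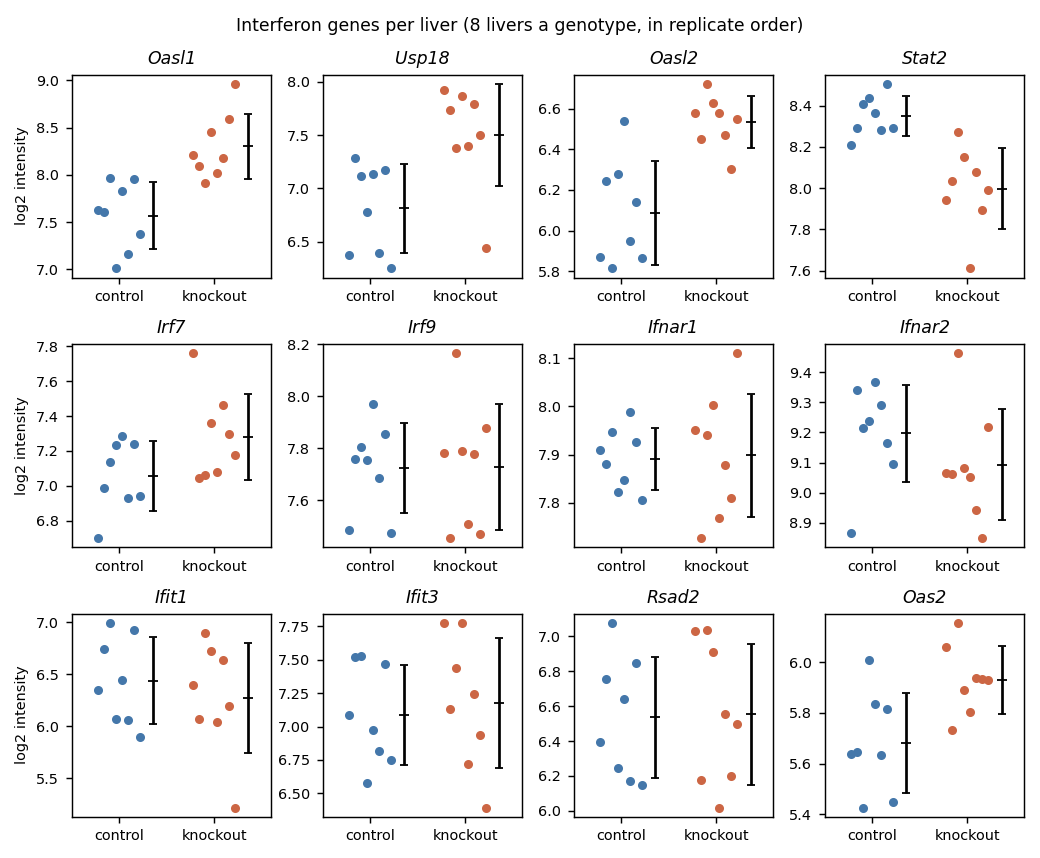
Log2 intensity of 12 interferon genes in each liver (blue, 8 control livers; orange, 8 knockout livers; each panel has its own scale), with the mean and SD beside the points. Oasl1, Usp18, Oasl2 and Stat2 in the top row were called changed; 1 knockout liver of Usp18 stands at 6.44, within the control range.

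The IFIT genes, whose proteins bind foreign RNA and block its translation, varied widely between livers of a genotype and gave no call, with none of the 3 at an unadjusted p under 0.05 in limma. Ifit1 stood at 5.90, 6.40 and 7.00 in controls and at 5.22, 6.30 and 6.90 in knockouts, a difference of -0.16 ± 0.20 (limma adjusted p = 0.826). Ifit3 stood at 6.58, 7.03 and 7.53 in controls and at 6.39, 7.19 and 7.78 in knockouts, a difference of 0.09 ± 0.19 (limma adjusted p = 0.927). For both, knockout 8 was the lowest of all 16 livers. Ifit2 differed by 0.11 ± 0.10 (limma adjusted p = 0.707). Genes of this family have close copies in mouse, and whether their probe sets read the copies was not tested.

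None of the 8 antiviral effectors was called, and 3 reached an unadjusted p under 0.05 in limma, as did 17.6% of all genes. Ifitm3, a membrane protein that blocks viral fusion, stood at 11.13, 11.30 and 11.60 in controls and at 11.29, 11.58 and 11.64 in knockouts, with 3 knockout livers above every control. Its difference was 0.22 ± 0.07 (limma adjusted p = 0.0818). It was called without control 2 (limma adjusted p = 0.028), without knockout 2 (limma adjusted p = 0.0372) and after quantile normalization (0.24, limma adjusted p = 0.0347). The exonuclease gene Isg20 stood at 6.47, 6.58 and 6.96 in controls and at 6.59, 6.96 and 7.68 in knockouts, with 4 knockout livers above every control and knockout 8 the highest. Its difference was 0.33 ± 0.12 (limma adjusted p = 0.0882), and it was called without knockout 2 (0.39, limma adjusted p = 0.0361).

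Rsad2 (viperin), which makes a chain-terminating nucleotide, stood at 6.15, 6.52 and 7.08 in controls and at 6.02, 6.53 and 7.04 in knockouts, nearly the same range (0.02 ± 0.16, limma adjusted p = 0.991). Its neighbour Cmpk2, a nucleotide kinase, differed by -0.11 ± 0.11. The dynamin-like GTPase genes Mx1 and Mx2 differed by 0.03 ± 0.06 and -0.26 ± 0.13 (limma adjusted p = 0.912 and 0.277). Mx1 was the 1 gene of the 41 below the 25th percentile of mean intensity, and 6 lay below the 50th percentile. Bst2 (tetherin), which holds budding virus at the membrane, differed by 0.04 ± 0.06, and Samhd1, which destroys deoxynucleotides, by 0.03 ± 0.09.

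Of the interferon-inducible GTPases that act on vacuoles of intracellular pathogens, Irgm1 differed by -0.30 ± 0.12 (limma adjusted p = 0.158), Gbp3 by -0.19 ± 0.12 and Gbp2 by 0.05 ± 0.15. None was called, and 1 of the 3 reached an unadjusted p under 0.05 in limma. The genes of antigen processing all had values below 0 with no call and no unadjusted p under 0.05 in limma. These were Psmb8 (-0.17 ± 0.11) and Psmb9 (-0.09 ± 0.10), subunits of the immunoproteasome, and Tap1 (-0.07 ± 0.09), the peptide transporter. Xaf1, a promoter of cell death, differed by 0.22 ± 0.11 (limma adjusted p = 0.291). Ifi35 and the receptor chaperone gene Rtp4 differed by 0.01 ± 0.08 and -0.02 ± 0.13.

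The rest of the pathway was read from a list of 102 further genes, of which 85 were measured. In limma 8 of the 85 rose and 1 fell, or 10.6% called in all, again beside 8.70% of all genes. For 4 of the 85 (4.71%) the genotypes did not overlap, beside 2.89% of all genes. Without the 3 arrays with adipocyte transcripts 7 were called and without all 5 arrays that stood apart 6, all of them higher. Over all genes the fit without the 5 arrays made fewer calls too, as counted in the last section. The share of all genes called without the 3 arrays is not given here. The 7 measured ligand genes, among them Ifnb1, Ifna4 and Ifng, gave no call and no unadjusted p under 0.05 in limma, with differences from -0.21 to 0.04. Ifnb1, Ifna4 and Ifnk were dim, with control means of 3.60, 3.78 and 3.65, below the 25th percentile of mean intensity over all genes (4.46). At such values a change may go unseen, and whether these transcripts stood above background was not tested. Of 10 genes of MHC class I presentation, such as B2m, Tap2 and H2-K1, none was called, and 1 had an unadjusted p under 0.05 in limma.

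Both chains of the receptor for interferon gamma rose, in contrast to the type I receptor, for which no call was made; the difference between the receptors was not tested. Ifngr2 stood at 8.16, 8.53 and 8.69 in controls and at 8.78, 8.93 and 9.17 in knockouts, with no overlap (0.47 ± 0.08, limma adjusted p = 0.000511). Ifngr1 stood at 7.18, 7.43 and 7.61 in controls and at 7.59, 7.80 and 8.27 in knockouts (0.42 ± 0.09, limma adjusted p = 0.0033). For Ifngr1 a single knockout liver lay below the highest control. The other 9 genes for receptors, kinases and their inhibitors, among them Jak1, Tyk2 and Socs1, were not called.

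Ly6e, a lipid-anchored surface protein, had the largest increase among all these interferon genes. It stood at 10.35, 10.59 and 11.07 in controls and at 11.49, 11.65 and 12.04 in knockouts, with no overlap, and rose by 1.03 ± 0.11, or 2.04-fold (limma adjusted p = 1.01e-06). Ifi27, a mitochondrial protein, stood at 8.27, 8.59 and 9.16 in controls and at 9.19, 9.46 and 9.73 in knockouts, again with no overlap (0.83 ± 0.12, limma adjusted p = 5.0e-05). Ifitm1, a relative of Ifitm3, rose by less but also without overlap, from 7.11, 7.27 and 7.38 in controls to 7.38, 7.48 and 7.70 in knockouts (0.23 ± 0.06, limma adjusted p = 0.0168). Slfn8 stood at 3.90, 4.27 and 4.52 in controls and at 4.30, 4.62 and 4.88 in knockouts, with 5 knockout livers above every control, and rose by 0.37 ± 0.10 (limma adjusted p = 0.0227). Parp12 rose by 0.24 ± 0.07 (limma adjusted p = 0.0457). The other 37 of the 42 induced genes, with Cxcl10, Oas1a and Gbp4 among them, were not called.

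Among 15 sensing genes, Myd88, the adaptor of most Toll-like receptors, stood at 7.12, 7.61 and 7.92 in controls and at 7.59, 7.94 and 8.37 in knockouts, with 4 knockout livers above every control. It rose by 0.38 ± 0.12 (limma adjusted p = 0.0436). Irf5, a factor of that route in myeloid cells, stood at 6.38, 6.63 and 6.98 in controls and at 6.04, 6.22 and 6.62 in knockouts, with 5 knockout livers below every control. It fell, with a difference of -0.38 ± 0.10 (limma adjusted p = 0.0163). Irf5 was not called without the 3 arrays with adipocyte transcripts (-0.32, limma adjusted p = 0.106). Ifitm1 and Myd88 were not called there either (limma adjusted p = 0.0864 and 0.0839). Without all 5 arrays that stood apart, Slfn8 was lost too (0.47, limma adjusted p = 0.0548), while Ly6e, Ifi27, Ifngr2 and Ifngr1 remained called, with adjusted p-values of 0.0236 or lower. Myd88 was lost when any of 12 arrays was left out on its own, and Slfn8 without control 3, control 6 or knockout 6.

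**Figure D3:**
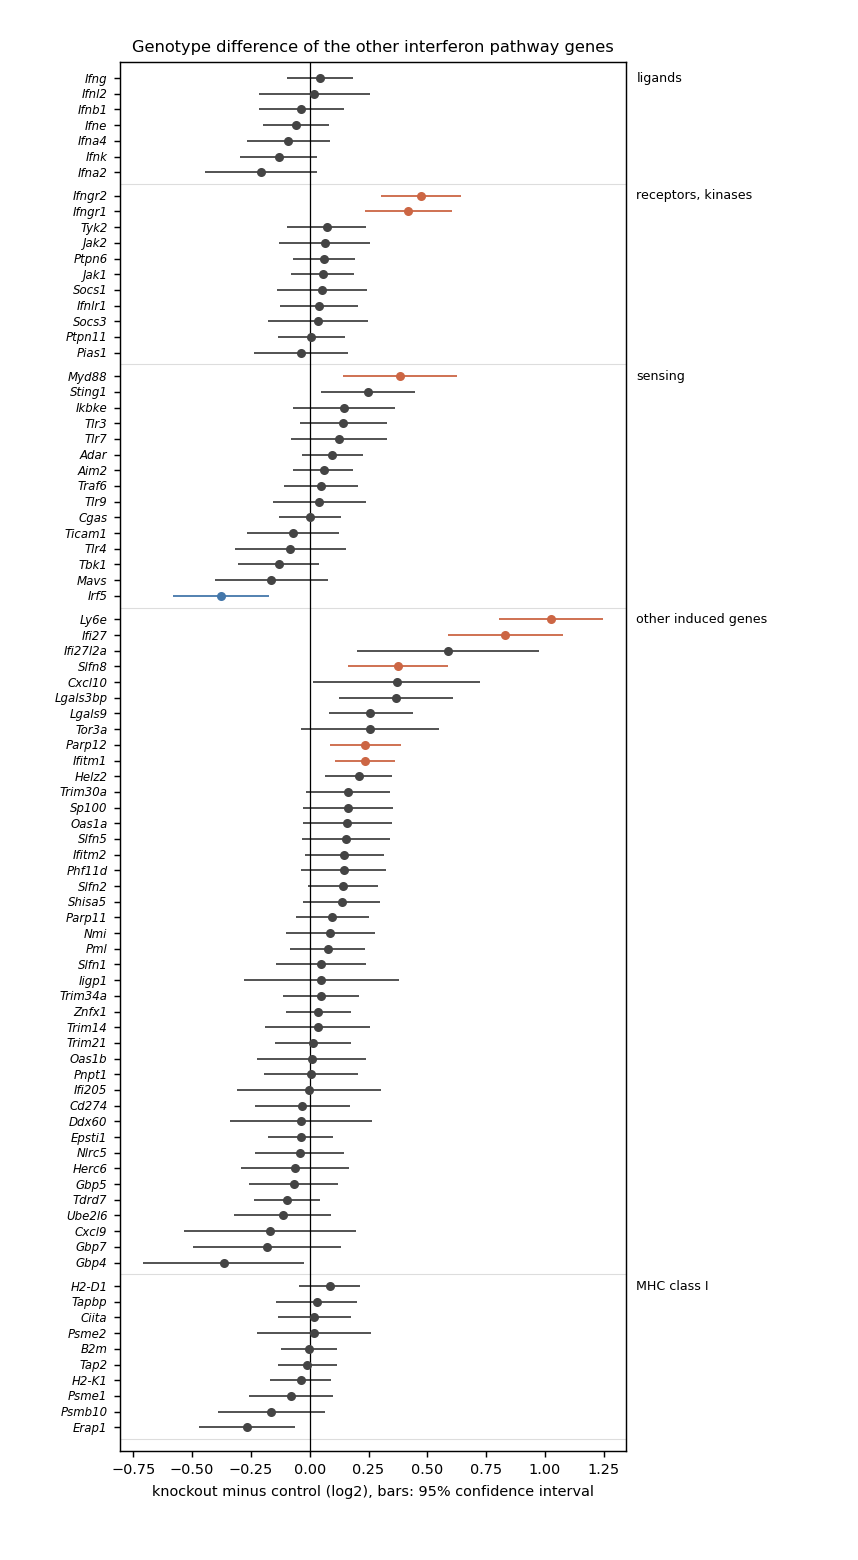
Difference in log2 intensity, knockout minus control, of the 85 other measured genes of the interferon pathway, with points for the limma estimate and bars for the 95% confidence interval (8 livers a genotype). Orange marks the 8 genes that rose, led by Ly6e at 1.03, and blue marks Irf5, which fell; no ligand and no MHC class I gene was called.

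Markers of immune and other cells were read on the same arrays. None of 12 Kupffer cell markers was called, with 1 at an unadjusted p under 0.05 in limma, and their summed intensity ran from 2151 to 3227 in controls and from 1825 to 3451 in knockouts. Of 6 markers of conventional dendritic cells, 3 rose, namely Xcr1 (0.33), Itgax (0.31) and Cd209a (0.24), with 5.49% of all genes called higher in the same fit. Clec9a (0.17), Flt3 (0.05) and Zbtb46 (-0.07) were not called, and none of the 6 separated the genotypes on its own. The sum of the 6, most of it from Cd209a, ran from 464 to 524 in controls and from 541 to 641 in knockouts. Siglech rose among 5 markers of plasmacytoid dendritic cells, the main interferon source of blood (0.28), while Ccr9, Cox6a2, Pacsin1 and Tcf4 were not called. For Siglech the genotypes did not overlap, as for 2.89% of all genes, but its highest control and lowest knockout both rounded to 5.195. The uncalled markers of this list overlapped. The sum of the 5 ran from 273 to 502 in controls and from 295 to 434 in knockouts, and the highest sums were those of control 4 and knockout 5, the arrays with muscle transcripts, where Cox6a2 reached 7.96 and 7.44. Without these arrays it ran from 273 to 319 in controls and from 295 to 356 in knockouts. Ccr2 rose among 6 markers of neutrophils and monocytes (0.42), with sums of 103 to 137 in controls and 107 to 133 in knockouts. None of the 10 T and NK cell markers and none of the 4 B cell markers was called, with 1 and 0 at an unadjusted p under 0.05 in limma. Of 6 stellate cell markers 3 rose, namely Reln (0.425), Dcn (0.430) and Col3a1 (0.316), and 1 fell, Lrat (-0.536). Of 4 cholangiocyte markers 1 rose, Epcam (0.307). Among all genes 5.49% were called higher and 3.20% lower. Some markers were dim, below the 25th percentile of mean intensity over all genes (4.46). Among them were the called Ccr2 (means of 3.40 in controls and 3.82 in knockouts) and Xcr1 (3.94 and 4.27). The uncalled Gzma, Klrb1c, Ncr1 and Ighm were dim as well. Which markers stood above background was not tested. The part of these cells in the differences of Oasl1, Oasl2, Usp18, Stat2 and the genes around them was not tested.

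The interferon-stimulated genes also differed between livers of the same genotype. Their median SD was 0.19 in controls and 0.22 in knockouts, and that of all genes was 0.16 and 0.17. Ifit1 had the largest spread in knockouts and over both genotypes, with SDs of 0.42 in controls and 0.53 in knockouts, at the 98.6th and 98.9th percentiles of all genes. Usp18 (0.42 and 0.48), the widest in controls by a small margin, Ifit3 (0.37 and 0.49) and Rsad2 (0.35 and 0.40) followed. The knockout SDs of Ifit1 and Usp18 rested on knockout 8. Without it they were 0.34 and 0.23, while those of Ifit3 and Rsad2 were 0.40 and 0.44. The knockout SD was the larger one for 26 of the 41 genes (63.4%) and for 53.8% of all genes.

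Many of the 41 genes were high or low together in a liver. In control 5, control 7 and control 2, 37, 35 and 32 of the 41 genes lay above their control mean. In control 8, control 1 and control 6, 4, 7 and 8 of the 41 did. Of the arrays with adipocyte transcripts, control 5 was thus high and control 8 low. Among knockouts, knockout 1 and knockout 4 were high, with 35 and 33 of the 41 genes above the knockout mean, and knockout 5 and knockout 2 were low, with 4 and 7. The mean deviation ran from -0.16 to 0.15 over the control livers and from -0.17 to 0.20 over the knockout livers, while that of all genes stayed between -0.03 and 0.03. The value over all genes gives the level of the whole array and not the scatter of a mean over 41 genes.

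Knockout 8 followed neither course. It held the lowest knockout value of 11 genes, among them Usp18, Ifit1, Ifit2, Ifit3, Ifih1 and Eif2ak2. It also held the highest of 7, among them Oasl1, Isg20, Irgm1 and Ifnar1. On this array 63.1% of all genes lay above their knockout mean, more than on any other array. Knockout 1, which carried adipocyte transcripts, held the highest knockout value of 13 of the 41 genes and the lowest of 0. Knockout 5, which carried muscle transcripts, held the lowest of 9 and the highest of 0. The part of the fat and muscle transcripts in these shifts was not tested.

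**Figure D4:**
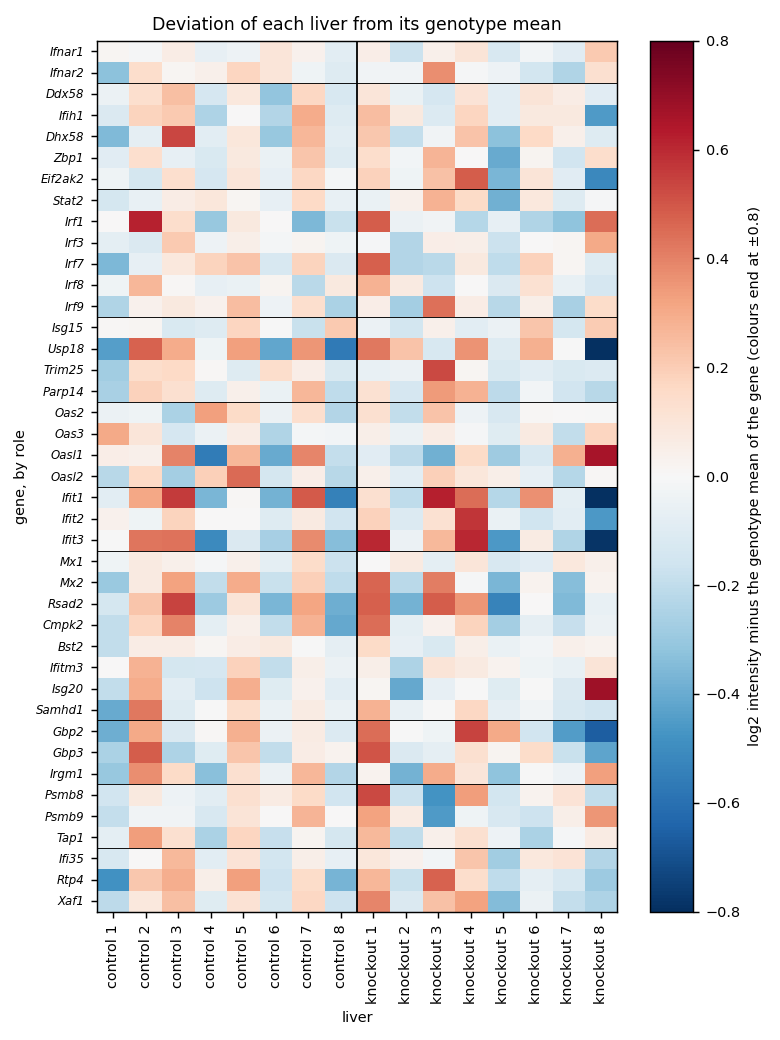
Deviation of each liver from its own genotype mean for the 41 genes (rows, by role) in 16 livers (columns), in log2 units, red above and blue below the mean, with colours ending at ±0.8. Control 5 and knockout 1 are mostly red (37 and 35 of 41 genes above the mean), control 8 and knockout 5 mostly blue (4 of 41 each), and knockout 8 is mixed.

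Pairs of a factor and a target were compared across the 8 livers of each genotype separately, 12 relations in all, with exact 2-sided permutation p-values adjusted by Benjamini-Hochberg over the 12. None passed, and over all 8 livers none had an unadjusted p under 0.05 by r or by rho. Irf7 with Usp18 in controls came closest, with r = 0.68 (exact permutation p = 0.0688, adjusted 0.476) and rho = 0.64 (exact permutation p = 0.0962, adjusted 0.529), and r was 0.54 without the 2 livers farthest from the median of Irf7. In knockouts the same pair had r = 0.47 (exact permutation p = 0.227, adjusted 0.908) and rho = 0.67 (exact permutation p = 0.0831, adjusted 0.529), with r = 0.17 without the 2 farthest livers. Irf7 with Oasl2 had r = 0.65 in controls (exact permutation p = 0.0793, adjusted 0.476) and rho = 0.60 (exact permutation p = 0.132, adjusted 0.529), and r was 0.41 without the 2 farthest livers. In knockouts that pair had r = -0.09 and rho = -0.05 (exact permutation p = 0.836 and 0.935), with r = -0.26 without the 2 farthest livers.

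The remaining 8 relations, Irf7 with Ifit1 and Isg15 and Irf1 with Gbp2 and Psmb8, had r between -0.25 and 0.38 and exact permutation p-values of 0.352 or higher, all with an adjusted p of 0.917 or more. Irf7 with Ifit1 had r = 0.32 in controls and 0.25 in knockouts, and Irf1 with Gbp2 had 0.38 and -0.04. Their rho lay between -0.24 and 0.48, with exact permutation p-values of 0.243 or higher and adjusted values of 0.729 or higher. Without the 2 livers farthest from the median of the factor, 6 livers remained. There r of Irf7 with Isg15 in controls was -0.83 (exact permutation p = 0.0514). For Irf1 with Psmb8 in knockouts r was -0.80 (exact permutation p = 0.0375). Both p-values are unadjusted, and both r differed from the values over all 8 livers (-0.25 and 0.12). Whether r differed between genotypes was not tested.

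Over all pairs of the 41 genes the correlations between livers of a genotype lay mostly above 0. The median r over 820 pairs was 0.43 in controls and 0.33 in knockouts, with 0.01 and 0.02 over all pairs of all 19237 genes. In controls 178 pairs (21.7%) exceeded 0.7, and in knockouts 120 (14.6%), with 6.9% and 6.64% of all gene pairs. These are descriptions with no p, since the points of a gene pair share their 8 arrays and the normalization of each, and the 820 pairs share their genes. The knockout median was 0.44 without knockout 8, 0.27 without knockout 1 and 0.21 without knockout 1 and knockout 5 together. The control median was 0.46 without controls 4, 5 and 8.

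Of the 820 pairs, 43 (5.24%) exceeded 0.7 in both genotypes, and they joined 25 of the 41 genes. The share of all gene pairs that did so was not counted. Parp14, Rsad2 and Xaf1 had the most such partners, 7 each, followed by Dhx58, Ifit3 and Mx2 with 6. The pairs named here were picked by their values. Rsad2 with Xaf1 had r = 0.93 in controls and 0.92 in knockouts, Cmpk2 with Xaf1 0.94 and 0.90, and Parp14 with Xaf1 0.89 and 0.90. Neighbouring genes were among them, with Rsad2 and Cmpk2 at 0.95 and 0.84 and Ifit1 and Ifit3 at 0.94 and 0.82. Samhd1 and Gbp3 formed a further pair, at 0.90 and 0.88. Without the 2 livers farthest from the median of the first gene, r of these named pairs stayed at 0.74 or higher. Other pairs of the 43 fell. Dhx58 with Rsad2 went to 0.45 in controls and 0.50 in knockouts, and Dhx58 with Cmpk2 to 0.43 and 0.55. In knockouts Mx2 with Rtp4 went to 0.28 and Usp18 with Ifit1 to 0.17.

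Usp18 had the highest median r with the other 40 genes in controls, at 0.68, and 0.15 in knockouts. Oasl1 had 0.48 in controls and -0.06 in knockouts. Knockout 8 held the lowest knockout value of Usp18 and the highest of Oasl1, and its part in these 2 knockout medians was not tested. Oasl2 had a median r of 0.32 in controls and 0.36 in knockouts, and Stat2 had 0.44 and 0.35. Irf8 (-0.07 and 0.24), Oas3 (-0.12 and 0.20) and the uncertain probe set of Isg15 (-0.23 and -0.03) stood outside it in controls. Against the 12 Kupffer cell markers the median r of the 41 genes was 0.22 in controls and 0.17 in knockouts. Against the adipocyte markers the median r was 0.02 in controls and 0.20 in knockouts, the highest of the knockout values for cell markers. Among knockouts only knockout 1 carried adipocyte transcripts, and it also held the highest knockout value of 13 of the 41 genes. The part of this array in the 0.20 was not tested. Against endothelial markers the median r was 0.09 and 0.12, against T and NK cell markers -0.11 and 0.01, and against conventional dendritic cell markers -0.08 and -0.02. Against markers of plasmacytoid dendritic cells it was -0.24 and -0.06, and against those of neutrophils and monocytes -0.27 and 0.11.

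**Figure D5:**
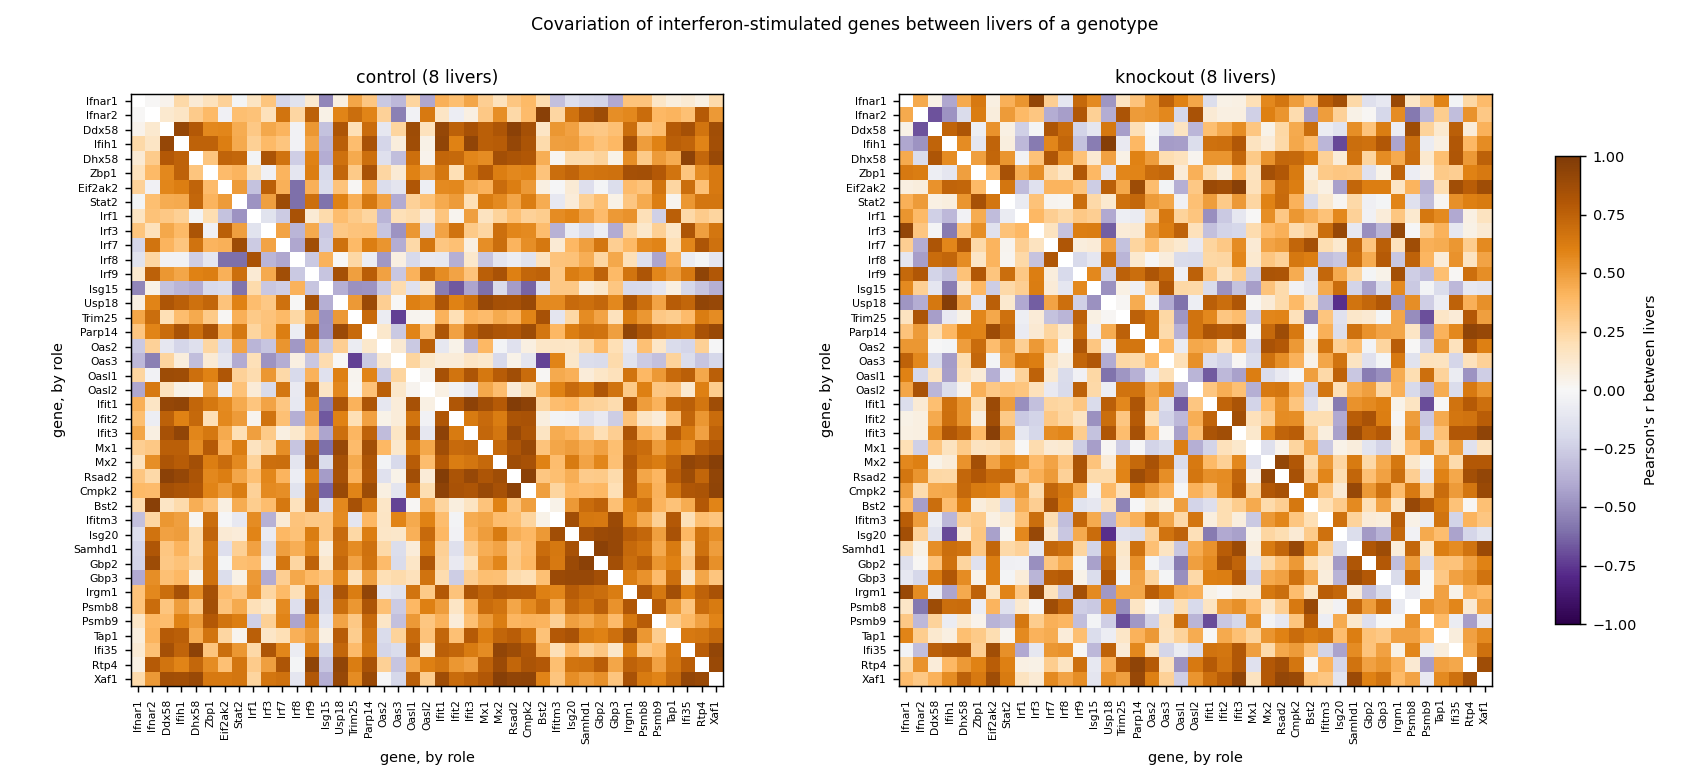
Pearson's r between the log2 intensities of each pair of the 41 genes across the 8 control livers (left) and the 8 knockout livers (right), with genes in order of role and the diagonal left blank. Orange, for r above 0, prevails in both panels (median 0.43 and 0.33), while in controls the rows of the Isg15 probe set, Irf8 and Oas3 have medians below 0.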

How the data were processed

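Liver RNA of 8 control and 8 knockout mice was read on 16 arrays. The authors deposited 1 linear intensity per probe set and array. The submitters' processing notes name Affymetrix Expression Console. How it summarised the probes and normalized the arrays is not given in the sources used here. Array medians lay between 38.9 and 43.5. An intensity made comparable between arrays shows change relative to the other transcripts of that array.

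The log2 of each intensity was used with no pseudocount, no filter and no further normalization. Of 35556 probe sets, 21456 were paired with 1 gene by the platform annotation, 2376 with several and 11724 were not listed. For 21277 of the first the gene was found in RefSeq (GRCm38.p6), and 2 symbols were updated. The probe set with the highest mean was kept for 1343 genes with several, which left 19237 genes. A model with genotype alone was fitted with lmFit and eBayes (limma 3.58.1, R 4.3.3), with 2-sided p-values and Benjamini-Hochberg adjustment over all genes. Correlations used all 40320 pairings of 8 livers. The scripts were tested on simulated data.

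The genes and lists were chosen with earlier results of these data known. The lowest, median and highest values are given for the called genes, for Irf7, Stat2, Irf9, Ifnar1 and Ifnar2, for the 4 genes with the largest spread within genotypes, for the 3 uncalled genes with the smallest p and, of the other pathway genes, for the 8 called with the smallest p. Parp12, Isg15 and other genes given by their difference complete the roles. The alternatives were quantile normalization, median centring, filters at the 25th and 50th percentiles, averaging the probe sets of a gene, a variance trend with robust variances, array weights, a replicate block and leaving out each array. The fits without the 3 or 5 arrays that stood apart were chosen after seeing the data. The labels number the livers within each genotype, but equal numbers did not pair them.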

Additional observations from a re-analysis of the deposited data

Results flagged for a closer look

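In 98 groups of 8 livers (the genes described above, in each genotype) the gap between the most extreme liver and its neighbour was compared with the range of the group, and 4 groups had a wide gap; chance gives about 5% of groups. Usp18 in knockout 8 was low at 6.44, with the next knockout liver at 7.38. Isg20 in the same liver was high at 7.68, with the next at 7.01. Trim25 in knockout 3 was high at 8.58, with the next at 8.07. Ifitm3 in knockout 2 was low at 11.29, with the next at 11.48. All 4 were knockout livers. Of the leave-one-out differences of Usp18, the one without knockout 8 was the highest, at 0.84.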

How the results depend on the processing

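Oasl1 and Oasl2 were called under every alternative run, and Stat2 under all but the fit without the 5 arrays that stood apart. That fit called 893 of all genes, 2 of the 41 genes and 6 of the 85 pathway genes. Leaving out each array in turn gave 1424 to 1821 calls over all genes, 3 to 5 among the 41, 6 to 11 among the 85, and a median difference of the 41 between -0.014 and 0.037. The pathway count was 5 with the replicate block and 5 with median centring; both lost Ifitm1, Slfn8, Myd88 and Parp12, and the block gave 4 calls among the 41. Genes without overlap numbered 1 after quantile normalization, 1 without the 3 arrays with adipocyte transcripts and 1 without the 5 arrays, and 0 to 2 when single arrays were left out. The median r of the 41 genes was 0.59 in controls and 0.45 in knockouts after median centring, 0.21 in knockouts without the 5 arrays, and 0.41 to 0.52 in controls and 0.27 to 0.44 in knockouts when single livers were left out. Differences near 0 changed sign without a call: Irf9 to -0.016 (quantile), -0.026 (centring), -0.067 (weights) and -0.004 (without 3 arrays), Ifnar1 to -0.008, -0.023, -0.041, -0.022 and, without 5 arrays, -0.019, Rsad2 to -0.022, -0.013, -0.064, -0.098 and -0.087 in the same order, and Ifit3 to -0.075 and -0.131 without 3 and 5 arrays. Without single arrays they ran from -0.058 to 0.044 (Irf9), -0.023 to 0.032 (Ifnar1), -0.052 to 0.095 (Rsad2) and 0.001 to 0.199 (Ifit3). Among the uncalled correlations, Irf7 with Isg15 turned to 0.36 in controls (quantile) and -0.16 in knockouts (without the 2 farthest livers), Irf7 with Oasl2 in knockouts to 0.10 (centring), Irf1 with Gbp2 in knockouts to 0.01 (centring) and 0.33 (without the 2 farthest livers), and Irf1 with Psmb8 in knockouts to -0.04 (quantile), -0.80 (without the 2 farthest livers) and -0.53 (without 3 arrays). Without single livers the knockout ranges were -0.12 to 0.32, -0.32 to 0.17, -0.46 to 0.53 and -0.53 to 0.34 in this order of pairs, and in controls -0.12 to 0.54 for Irf1 with Gbp2 and -0.04 to 0.57 for Irf1 with Psmb8. The cause of these changes was not tested. The replicate numbers did not pair the livers: the correlation of equally numbered livers ran from -0.262 to 0.235, and only number 8 matched its own number best.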
